A study of Homo sapiens with 18 samples.

Results

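The transcripts followed here are those of 48 genes of mitosis and of the passage from G2 into M phase, in U251 cells, an established human glioma line, exposed to enzastaurin, an inhibitor of protein kinase C beta, or to DMSO, its vehicle control. The arrays were run to find which transcripts enzastaurin changes. The genes form a list by function, chosen with earlier results of these data known. Each was read from 1 probe set, the one with the highest mean level among the probe sets that the platform annotation maps to that gene alone. All 48 genes passed the filter on low levels, so they make up 48 of the 12376 genes tested. The 6 groups were enzastaurin at 4, 10 and 18 h and DMSO at 4, 10 and 18 h, with 3 Affymetrix HG-U133 Plus 2.0 arrays each and 18 arrays in all. Cells of every group grew in RPMI medium with serum, and all groups are 1 line. The labels used here give no dose of enzastaurin and do not say whether the 3 arrays of a group came from separate cultures, so p-values measure the spread between these arrays, which may be technical.

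Entry into mitosis is driven by the kinase CDK1 bound to its cyclin partners, which CDC25 phosphatases activate and Polo-like and Aurora kinases assist. Kinesins and spindle proteins then build the spindle, the kinetochore links chromosomes to it, the spindle checkpoint holds the anaphase-promoting complex until all chromosomes are attached, and securin and cyclin B are destroyed. Most of these genes are transcribed in a wave that peaks in G2 and M phase, through promoter elements named CHR and CCAAT box, which the MuvB complex with B-MYB or FOXM1, and the factor NF-Y, are known to use. The level of such a transcript in RNA of a whole culture depends on how many cells are in these phases and on how much RNA each holds, and these 2 cannot be told apart in the values below.

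The values were signal intensities on a linear scale, already scaled so that the trimmed mean lay between 498.2 and 498.5 on every array, while array medians ran from 99.2 to 125.9. Within a group, arrays correlated at 0.9771 to 0.9864 across genes. Of 9 glioma and astroglial markers, 5 were above the level floor of the filter, among them VIM at a median intensity of 32740 and NES at 4396, while GFAP (median 17.0), S100B, AQP4 and OLIG2 were below it. Of 15 markers of blood, endothelium, epithelium, neurons, oligodendrocytes, erythroid cells and smooth muscle, 5 were above the floor (CD3E, PECAM1, KRT18, MBP and HBB). PTPRC, CD14, CDH5, VWF, EPCAM, CDH1, KRT5, RBFOX3, SYP and MYH11 were not. For oligodendrocytes and erythroid cells the only marker read, MBP and HBB in turn, was above it. The summed intensity of these 15 ranged from 7472 to 8172 over the enzastaurin arrays at 18 h, against 8393 to 9096 over the DMSO arrays at 18 h, most of it KRT18, and its part in the 18 h results below was not tested.

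At 18 h, 19 of the 48 genes fell and 2 rose in enzastaurin cells relative to DMSO cells. A change is the difference of the mean log2(intensity + 16), and a gene rose or fell where limma's moderated test gave a Benjamini-Hochberg adjusted p under 0.05 over all genes tested. Across all genes tested 8.10% were higher and 7.90% lower in that comparison, and among genes as bright as these 48 (the brightest 25% of probe sets) 11.4% were higher and 11.0% lower. The members' shares were 4.17% higher and 39.6% lower. Their median log2 change was -0.22, with 42 of 48 below 0, beside 0.001 for all genes, of which 49.8% were below 0. In 27 members all 3 enzastaurin arrays lay below all 3 DMSO arrays, and in 2 they lay above, which held for 14.4% and 15.4% of all genes.

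**Figure D1:**
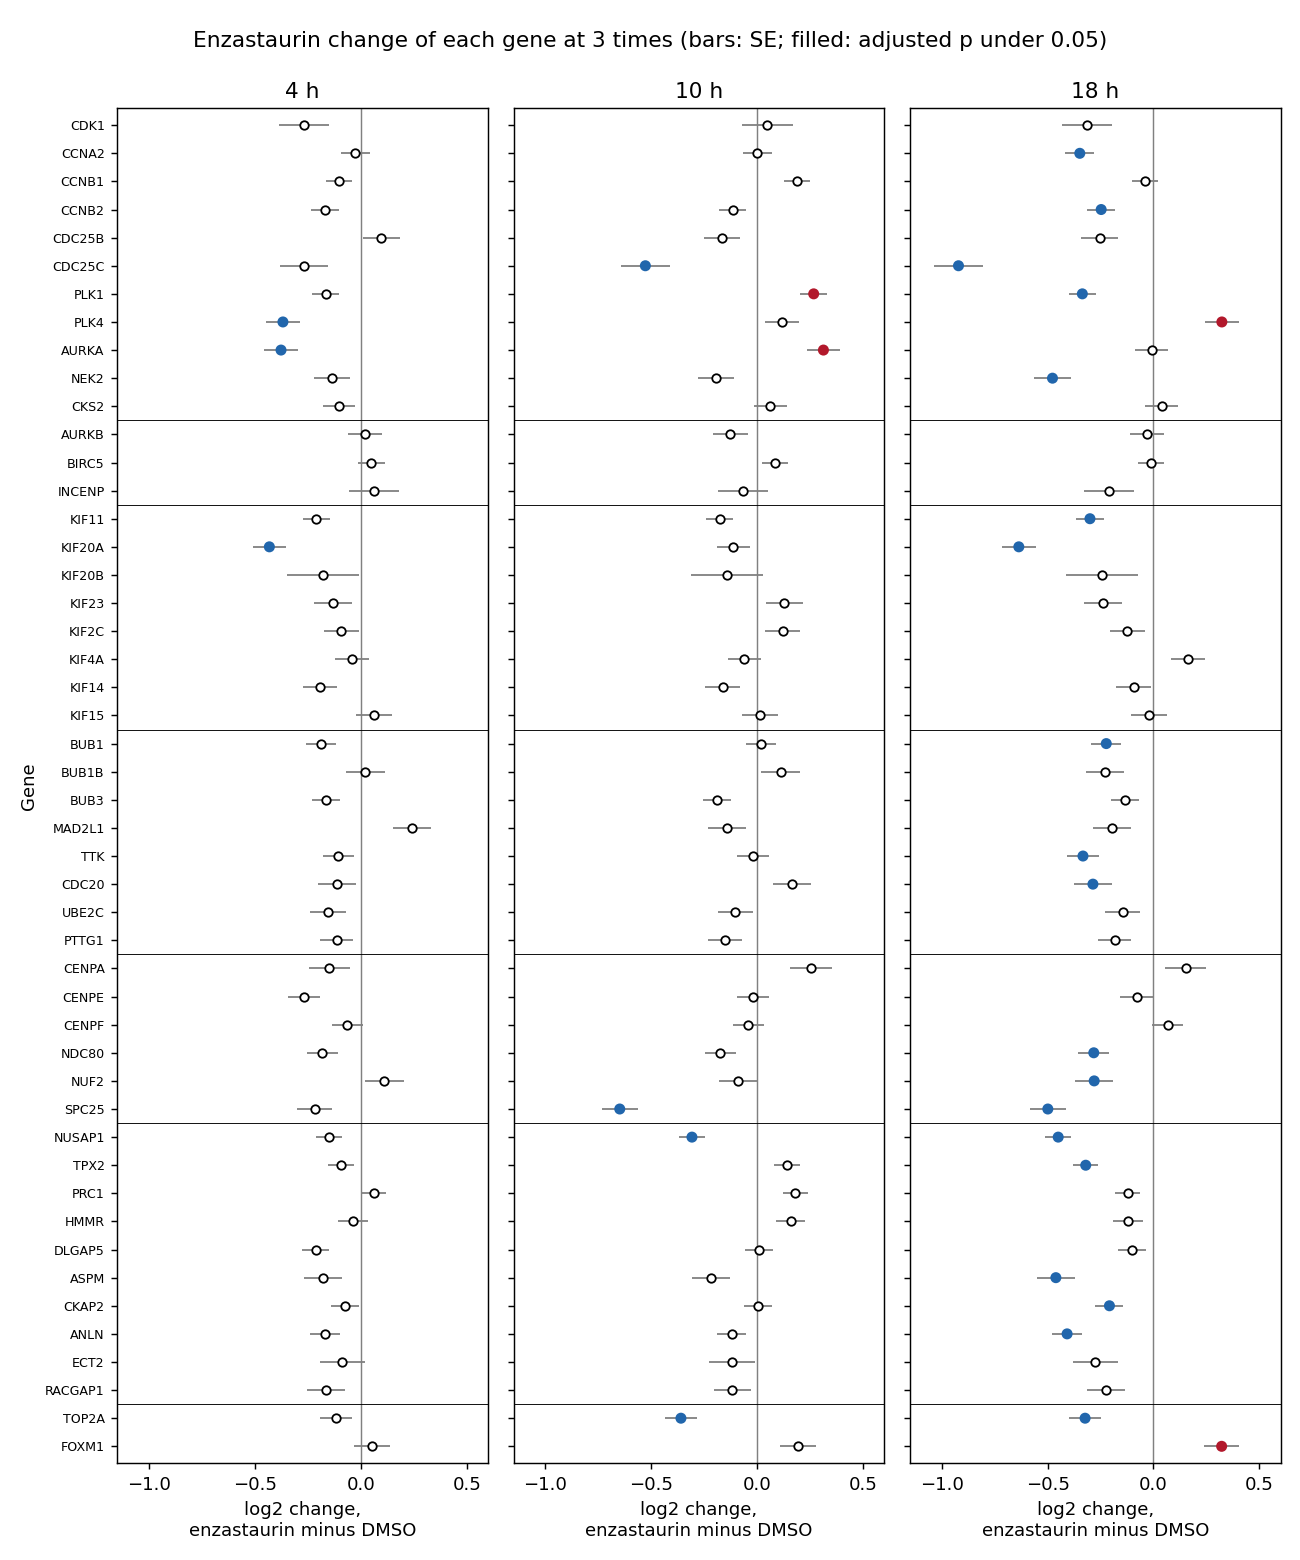
Log2 change, enzastaurin minus DMSO, of each of the 48 genes at 4, 10 and 18 h (points; bars are standard errors of the fit, n = 3 arrays a group), in role groups parted by horizontal lines, with filled points for adjusted p under 0.05 (blue lower, red higher). At 18 h 19 filled points lie left of 0 and 2 right of it, against 3 left at 4 h and 4 left and 2 right at 10 h.

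The earlier times held fewer calls. At 4 h, 3 members fell (KIF20A, AURKA and PLK4) and none rose, where 0.558% of all genes were higher and 1.25% lower. The members' median log2 change at 4 h was -0.13, with 38 of 48 below 0 and 17 with all enzastaurin arrays below all DMSO arrays, which held for 9.13% of all genes. In 2 members they were above, which held for 9.17% of all genes. Among the brightest 25% at 4 h 0.813% were higher and 1.73% lower. At 10 h, 4 members fell (SPC25, CDC25C, TOP2A and NUSAP1) and 2 rose (AURKA and PLK1), where 3.77% of all genes were higher and 4.69% lower. Among the brightest 25% at 10 h 5.78% were higher and 6.40% lower. The members' shares at 10 h, 4.17% higher and 8.33% lower, were near these. The members' median at 10 h was -0.05, beside -0.016 for all genes. In that comparison 27 members were below 0, as were 53.1% of all genes. All enzastaurin arrays were below all DMSO arrays in 12 members and above in 8, which held for 15.0% and 11.8% of all genes. The comparisons at the 3 times use different arrays. Of the 4 members that fell at 10 h all 4 also fell at 18 h, 4 of the 19 there, while of the 3 that fell at 4 h only KIF20A was also among the 19.

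The count at 4 h was 1 without the DMSO array 3 or the enzastaurin array 1 of that time. It was 0 when each array's median was subtracted, a step that moved the median of all genes at 4 h to 0.116 and that of the members to -0.01. With medians subtracted the call split over all genes at 4 h turned to 54 higher and 25 lower, in place of 69 higher and 155 lower, and the 18 h members' count became 0 higher and 11 lower.

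The mean log2 level of the 48 genes on each array was 12.20 ± 0.05, 12.27 ± 0.03 and 12.05 ± 0.02 in enzastaurin cells at 4, 10 and 18 h, against 12.32 ± 0.03, 12.31 ± 0.03 and 12.25 ± 0.01 in DMSO cells (SD, n = 3 each). At 18 h the enzastaurin arrays lay between 12.04 and 12.07 and the DMSO arrays between 12.25 and 12.26, so the groups stood clear of each other. At 4 h the enzastaurin arrays (12.16 to 12.25) also lay below the DMSO arrays (12.29 to 12.35), and at 10 h the ranges overlapped (12.24 to 12.29 against 12.27 to 12.34).

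**Figure D2:**
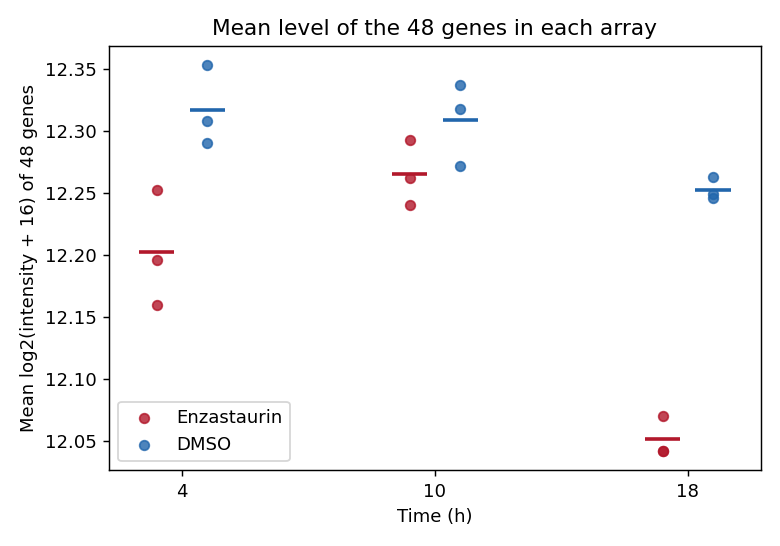
Mean log2(intensity + 16) of the 48 genes on each array (points) at 4, 10 and 18 h, with group means as lines, for enzastaurin (red) and DMSO (blue). The 3 enzastaurin arrays at 18 h, between 12.04 and 12.07, are the lowest of the 18, and the vertical axis does not start at 0.

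**Figure D3:**
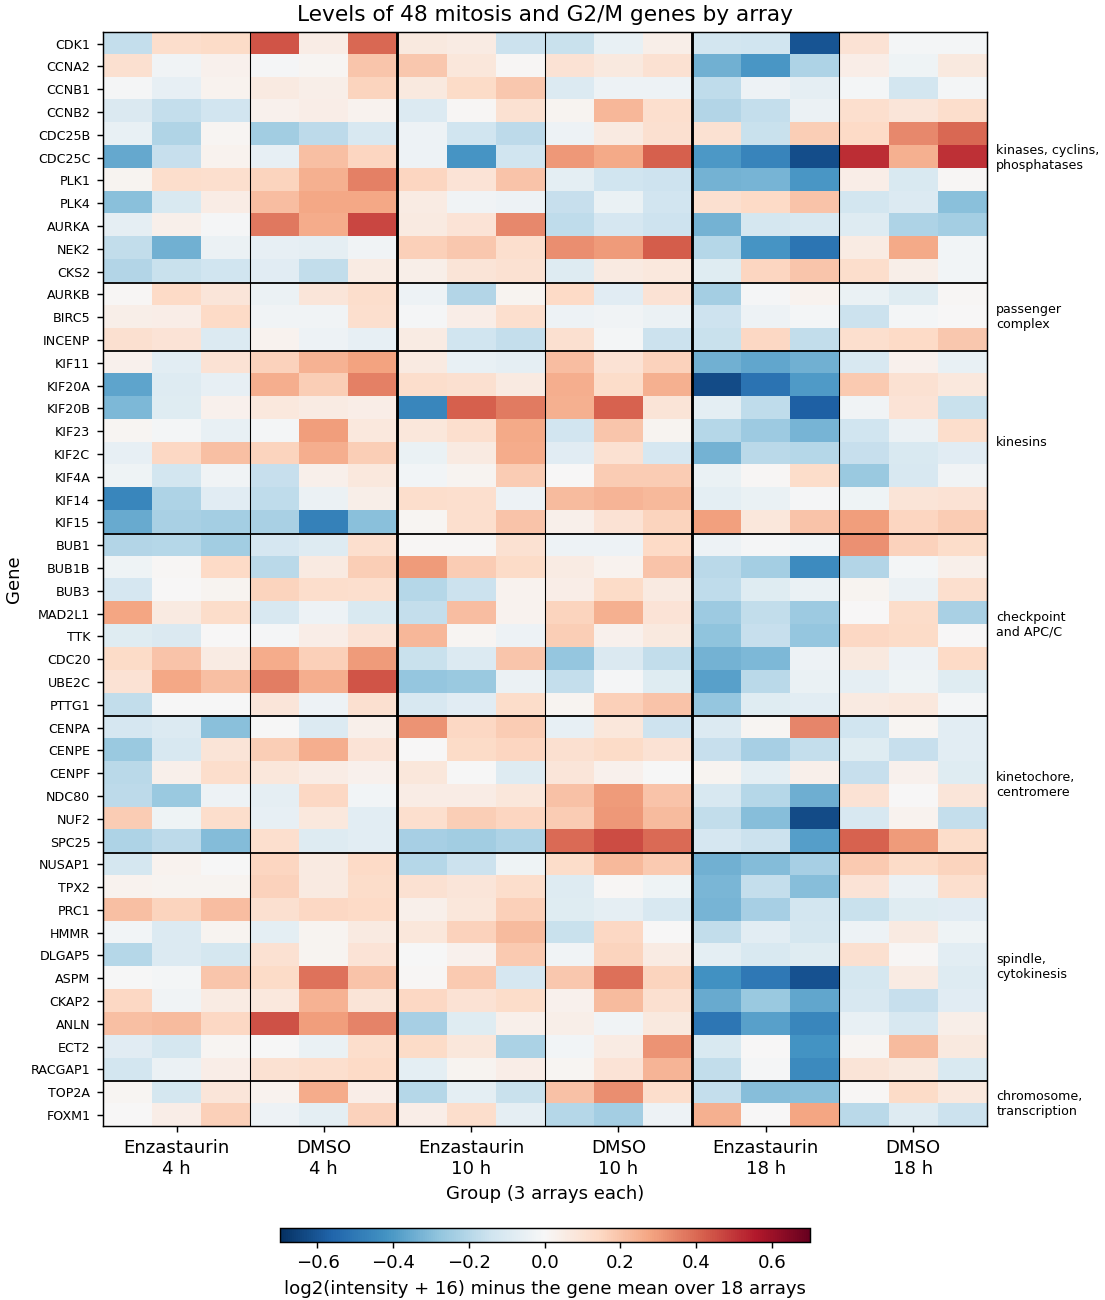
Log2(intensity + 16) of each of the 48 genes (rows, by role) on each of the 18 arrays (columns, by group), as the difference from that gene's mean over all arrays. Blue is prevalent in the enzastaurin columns at 18 h, with exceptions that include PLK4, FOXM1 and KIF15, and CDC25C and SPC25 show their highest levels in DMSO cells at 10 and 18 h.

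The promoters of the members with the largest falls at 18 h are shown because genes of this program are known to share promoter elements. The windows run from 250 bases before to 50 after each annotated start, from RefSeq on GRCh38.p14, printed 5′ to 3′ on the gene's strand. Capitals mark the 6 letters TTTGAA (the CHR core) or the 5 letters CCAAT, either as such or as their reverse complements TTCAAA and ATTGG. CDC25C is at chr5:138331755-138332054 on the minus strand (1 of its 4 windows), KIF20A at chr5:138178862-138179161 on the plus strand, SPC25 at chr2:168890381-168890680 on the minus strand and NEK2 at chr1:211675572-211675871 on the minus strand.
CDC25C: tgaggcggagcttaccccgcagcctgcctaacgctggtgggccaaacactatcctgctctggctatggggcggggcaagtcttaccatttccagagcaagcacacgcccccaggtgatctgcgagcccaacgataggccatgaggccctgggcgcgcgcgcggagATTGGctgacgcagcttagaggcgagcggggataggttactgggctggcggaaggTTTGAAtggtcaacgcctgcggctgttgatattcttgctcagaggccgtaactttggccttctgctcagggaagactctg
KIF20A: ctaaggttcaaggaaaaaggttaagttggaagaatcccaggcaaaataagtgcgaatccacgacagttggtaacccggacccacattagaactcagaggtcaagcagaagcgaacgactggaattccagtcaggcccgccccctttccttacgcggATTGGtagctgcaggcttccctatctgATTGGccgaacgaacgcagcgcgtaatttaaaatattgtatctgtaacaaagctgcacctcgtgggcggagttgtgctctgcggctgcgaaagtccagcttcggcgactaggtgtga
SPC25: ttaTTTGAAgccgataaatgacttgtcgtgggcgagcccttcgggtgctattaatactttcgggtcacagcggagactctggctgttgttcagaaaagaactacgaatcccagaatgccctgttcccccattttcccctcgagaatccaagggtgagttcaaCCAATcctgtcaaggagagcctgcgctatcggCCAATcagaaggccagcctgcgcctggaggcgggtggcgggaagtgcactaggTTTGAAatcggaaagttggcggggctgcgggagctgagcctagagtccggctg
NEK2: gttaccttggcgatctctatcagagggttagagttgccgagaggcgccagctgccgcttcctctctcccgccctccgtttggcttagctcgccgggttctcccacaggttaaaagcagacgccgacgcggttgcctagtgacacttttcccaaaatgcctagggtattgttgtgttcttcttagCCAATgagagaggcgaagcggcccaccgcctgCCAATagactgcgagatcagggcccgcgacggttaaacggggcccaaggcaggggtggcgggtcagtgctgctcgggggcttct

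In the printed CDC25C window TTTGAA begins at -30 from the start, with CCAAT on the other strand at -85. Of the 4 CDC25C windows this one was chosen for holding both, with TTTGAA before the start. Another CDC25C window overlaps this one and has a different start. Counted from that start, the same TTTGAA begins at 43, after it, and the same CCAAT at -12. That window also holds CCAAT at -217 and -200, on opposite strands. SPC25 has TTTGAA at -247 and -3 and CCAAT at -88 and -56, while the KIF20A and NEK2 windows hold 2 CCAAT each and no TTTGAA. Of the 48 members 40 had a window, 7 of them several; AURKA, BIRC5, BUB3, FOXM1, RACGAP1, TPX2, TTK and UBE2C had none. Both strands were searched, overlapping matches were each counted, and a gene counted if any of its windows held the letters. TTTGAA stood in 29 of the 40 members (72.5%), against 18.2% of the 27305 genes with a window and 14.5% of the 10080 of these that were tested. CCAAT stood in 32 of the 40 (80.0%), against 39.7% of all genes and 43.6% of those tested, and 23 members (57.5%) held both in 1 window, against 7.26% and 5.98%. The members with TTTGAA had a median log2 change at 18 h of -0.24, with 12 of 29 lower and 1 higher, and the 11 without it -0.21, with 5 lower and 0 higher. A match is a run of letters and not a shown binding site.

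Among the 11 kinases, cyclins and phosphatases, 2 fell at 4 h, 1 fell and 2 rose at 10 h, and 5 fell and 1 rose at 18 h. For this and the other role groups, the shares of all genes were 0.558% higher and 1.25% lower at 4 h. They were 3.77% and 4.69% at 10 h, and 8.10% and 7.90% at 18 h. The role groups are small, so 1 gene shifts their shares strongly. CDC25C, the phosphatase that removes inhibitory phosphates from CDK1, fell most of all 48 genes at 18 h. Its intensity at 4 h was 970.0, 1116 and 1269.8 on the enzastaurin arrays and 1199.6, 1448 and 1388.5 on the DMSO arrays. At 10 h it was 1219, 934 and 1133 on the enzastaurin arrays, against 1548, 1508 and 1679 on the DMSO arrays. At 18 h it was 942.5, 904 and 806 on the enzastaurin arrays, against 1796, 1486 and 1791 on the DMSO arrays. The groups overlapped at 4 h and stood apart at 10 and 18 h. The log2 change was -0.27 ± 0.11 (SE, adjusted p = 0.326) at 4 h, -0.53 ± 0.11 (SE, adjusted p = 0.00522) at 10 h and -0.92 ± 0.11 (SE, adjusted p = 7.26e-06) at 18 h, the last a ratio of 0.528 on the offset scale. A second probe set of CDC25C gave -0.60 at 10 h and -0.80 at 18 h, and a further one, under the level floor, 0.21 at 18 h. The mean of all its probe sets was -0.29 at 10 h (adjusted p = 0.461) and -0.51 at 18 h (adjusted p = 0.08).

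NEK2, a kinase of the centrosome, had intensities of 3203.5, 2765 and 2578 on the enzastaurin arrays at 18 h, against 3835, 4429.9 and 3643 on the DMSO arrays. The groups did not overlap, and the log2 change was -0.48 ± 0.09 (SE, adjusted p = 0.00046). CCNA2, cyclin A2, was at 3305, 3152 and 3591.5 in enzastaurin cells and 4318, 4094 and 4374 in DMSO cells at 18 h. It fell by 0.35 on the log2 scale (adjusted p = 0.00125), after changes of -0.03 at 4 h and 0.001 at 10 h. A second CCNA2 probe set fell at 4 h (-0.32, adjusted p = 0.0288 over all probe sets) and did not pass at 18 h (-0.12, adjusted p = 0.319). CCNB2, cyclin B2, fell to a mean of 8000 ± 487 in enzastaurin cells at 18 h, against 9484 ± 124 in DMSO cells (SD, n = 3 each). The log2 change of CCNB2 was -0.25 ± 0.07 (SE, adjusted p = 0.0121).

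PLK1, the Polo-like kinase that acts from mitotic entry to cytokinesis, moved in opposite directions at 10 and 18 h. At 4 h its intensity was 4165, 4484 and 4454 on the enzastaurin arrays and 4585, 4890.1 and 5243 on the DMSO arrays. At 10 h it was 4560.3, 4393 and 4731 on the enzastaurin arrays, against 3925, 3723 and 3712 on the DMSO arrays. At 18 h it was 3269.6, 3275 and 3099.7 on the enzastaurin arrays, against 4251, 3811 and 4134 on the DMSO arrays. All enzastaurin arrays were below all DMSO arrays at 4 h, above them at 10 h and below them at 18 h. The log2 change was -0.17 ± 0.06 (SE, adjusted p = 0.258) at 4 h, 0.27 ± 0.06 (SE, adjusted p = 0.0111) at 10 h and -0.34 ± 0.06 (SE, adjusted p = 0.000782) at 18 h, and did not pass at 4 h.

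AURKA, the Aurora kinase of centrosomes and spindle poles, fell at 4 h and rose at 10 h. Its intensities at 4 h were 8546, 9168 and 8874 in enzastaurin cells and 11541, 10690.4 and 12347 in DMSO cells. At 10 h they were 9348, 9535 and 11295 in enzastaurin cells and 7881, 8233 and 8090.5 in DMSO cells. At 18 h they were 7086, 8189.7 and 8258.5 in enzastaurin cells and 8399, 7683 and 7575.5 in DMSO cells, where the groups overlapped, which they did not at 4 and 10 h. The log2 changes were -0.38 ± 0.08 (SE, adjusted p = 0.0119) at 4 h, 0.31 ± 0.08 (SE, adjusted p = 0.0152) at 10 h and -0.01 ± 0.08 (SE, adjusted p = 0.962) at 18 h. The mean of AURKA at 4, 10 and 18 h was 8862, 10060 and 7845 in enzastaurin cells and 11530, 8068 and 7886 in DMSO cells. A second, dimmer AURKA probe set had the same signs but did not pass at 4 h (-0.305, adjusted p = 0.0859 over all probe sets). It did not pass at 10 h either (0.163, adjusted p = 0.306). A further one, dimmer still, had -0.149 at 4 h (adjusted p = 0.846) and 0.400 at 10 h (adjusted p = 0.309).

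PLK4, the kinase that starts centriole duplication, fell at 4 h and rose at 18 h. At 4 h its intensities were 1364, 1554 and 1732 in enzastaurin cells and 1947, 2020.3 and 2020.1 in DMSO cells. At 18 h they were 1809.8, 1848 and 1924 in enzastaurin cells and 1529, 1563 and 1365.5 in DMSO cells. The groups stood apart at both times, in opposite directions, with log2 changes of -0.37 ± 0.08 (SE, adjusted p = 0.0169) at 4 h, 0.12 ± 0.08 (SE, adjusted p = 0.463) at 10 h and 0.32 ± 0.08 (SE, adjusted p = 0.00754) at 18 h. The other PLK4 probe sets gave 0.05 and -0.12 at 18 h, and the mean of all its probe sets was 0.09 (adjusted p = 0.659). With array medians subtracted the 18 h rise of PLK4 no longer passed (adjusted p = 0.0892).

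CDK1, the kinase at the centre of the transition, did not pass the test at any time with the probe set used. At 18 h it was at 7917, 7867 and 5684 in enzastaurin cells and 9295, 8574 and 8572 in DMSO cells, with no overlap, but its arrays spread widely within the enzastaurin group. Its log2 changes were -0.27 ± 0.12 (SE, adjusted p = 0.348) at 4 h, 0.05 ± 0.12 (SE, adjusted p = 0.883) at 10 h and -0.32 ± 0.12 (SE, adjusted p = 0.0804) at 18 h. A second, dimmer CDK1 probe set fell at 4 h (-0.31, adjusted p = 0.0403 over all probe sets), with -0.13 at 10 h and -0.15 at 18 h. A further one had the same size at 4 h as the probe set used (-0.27, adjusted p = 0.135). CCNB1, cyclin B1, was at 12121.5, 13381 and 13135 in enzastaurin cells and 13594, 12540.1 and 13618 in DMSO cells at 18 h, where the groups overlapped. Its log2 changes were 0.19 ± 0.06 (SE, adjusted p = 0.0624) at 10 h and -0.04 at 18 h. A second, dimmer CCNB1 probe set rose at 10 h (0.34, adjusted p = 0.00325 over all probe sets) and did not pass at 18 h (-0.16, adjusted p = 0.14). The remaining members of the group at 18 h were CDC25B, a further CDC25 phosphatase, at -0.25 ± 0.09 (SE, adjusted p = 0.0543) and CKS2, a CDK-binding protein, at 0.04.

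**Figure D4:**
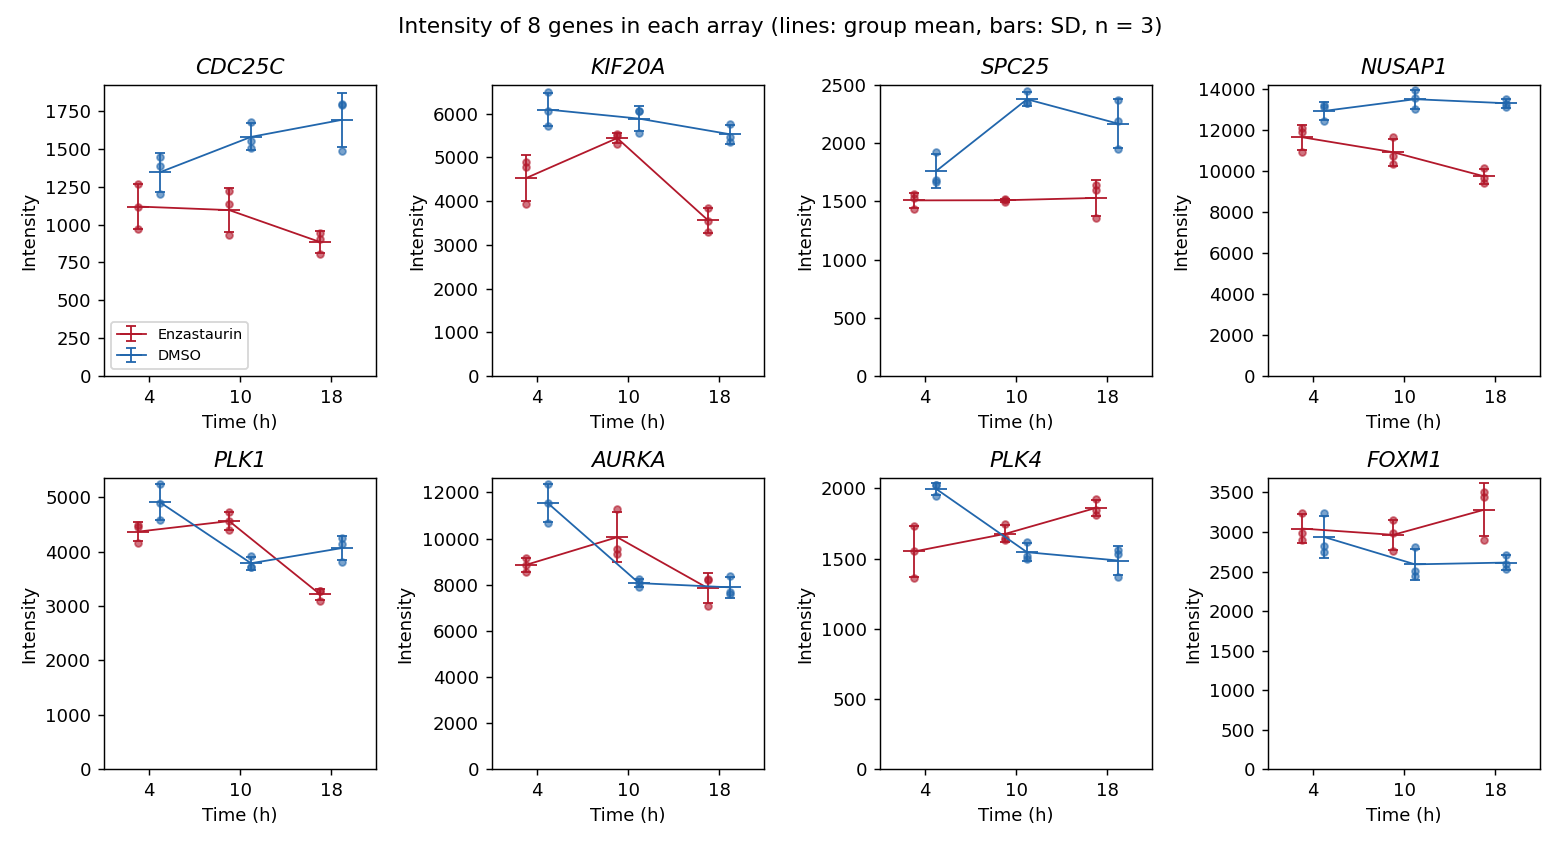
Intensity of 8 genes on each array at 4, 10 and 18 h (points), with group means (lines) and SD (bars, n = 3) for enzastaurin (red) and DMSO (blue). CDC25C separates at 10 and 18 h and KIF20A, SPC25 and NUSAP1 at all 3 times, while PLK1, AURKA and PLK4 cross between times and FOXM1 is higher in enzastaurin cells at 18 h.

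None of the 3 genes of the chromosomal passenger complex passed at any time. AURKB, its kinase, had intensities of 2740.1, 3214 and 3290.4 in enzastaurin cells at 18 h and 3125, 3044.5 and 3256 in DMSO cells, which overlapped. Its log2 changes were 0.02 at 4 h, -0.13 at 10 h and -0.03 ± 0.08 (SE, adjusted p = 0.854) at 18 h. BIRC5, or survivin, a subunit that helps place the complex on chromosomes, had -0.01 ± 0.06 (SE) at 18 h, and INCENP, the scaffold, -0.21 ± 0.12 (SE). With these standard errors the test leaves room for small changes in either direction.

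Of the 8 kinesins, motor proteins that move along microtubules, KIF20A and KIF11 fell at 18 h and none rose. KIF20A, a motor of the central spindle needed for cytokinesis, was at 3929.7, 4773 and 4885 in enzastaurin cells at 4 h, against 6056, 5730.0 and 6497 in DMSO cells. At 10 h it was at 5531, 5486 and 5307 in enzastaurin cells and 6058, 5551 and 6053 in DMSO cells. At 18 h it was at 3283, 3544 and 3851 in enzastaurin cells, against 5768, 5469 and 5354 in DMSO cells. The enzastaurin arrays were the lower ones at every time, and by the least at 10 h. The log2 changes of KIF20A were -0.43 ± 0.08 (SE, adjusted p = 0.00384) at 4 h, -0.11 ± 0.08 (SE, adjusted p = 0.475) at 10 h and -0.64 ± 0.08 (SE, adjusted p = 7.52e-06) at 18 h, the last a ratio of 0.644.

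KIF11, the motor that pushes spindle poles apart, was at 2730.2, 2673 and 2729 in enzastaurin cells at 18 h, against 3188, 3522 and 3317 in DMSO cells. The groups did not overlap, at this time or at 4 and 10 h, and the change was -0.21 ± 0.06 (SE, adjusted p = 0.116) at 4 h, -0.18 ± 0.06 (SE, adjusted p = 0.1) at 10 h and -0.30 ± 0.06 (SE, adjusted p = 0.00227) at 18 h, where it passed. The other kinesins gave log2 changes at 18 h of -0.24 for KIF20B, -0.24 for KIF23 and -0.09 for KIF14, which act in cytokinesis, and none passed. KIF2C, which takes microtubules apart, had -0.12, KIF15, a spindle motor that can stand in for KIF11, -0.02, and KIF4A, which binds chromosomes, 0.16, again without passing. KIF20B had the widest standard error of the 48 genes (0.17), with enzastaurin arrays at 10 h of 1295, 2392 and 2302.

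In the spindle checkpoint and its target, the anaphase-promoting complex, 3 of 8 genes fell at 18 h and none passed at 4 or 10 h. TTK, the kinase that starts checkpoint signalling, was at 2049, 2226 and 2065 in enzastaurin cells at 18 h, against 2759, 2739 and 2502 in DMSO cells. CDC20, the activator of the complex, was at 9100.4, 9201 and 11182 in enzastaurin cells and 12008, 11191 and 12648 in DMSO cells. BUB1, a checkpoint kinase at kinetochores, was at 4261, 4347 and 4315 in enzastaurin cells and 5466, 4879.7 and 4777 in DMSO cells. In all 3 the enzastaurin arrays lay below the DMSO arrays, for CDC20 by the narrowest gap. Their log2 changes were -0.33 ± 0.07 (SE, adjusted p = 0.00309) for TTK, -0.29 ± 0.09 (SE, adjusted p = 0.0352) for CDC20 and -0.22 ± 0.07 (SE, adjusted p = 0.0371) for BUB1. The other 5 were all below 0 at 18 h without passing in the probe set used: BUB1B -0.23, MAD2L1 -0.20 and BUB3 -0.14 in the checkpoint, UBE2C, an E2 enzyme of the complex, -0.15, and PTTG1, or securin, -0.18. Dimmer probe sets gave other calls for 2 of these genes. A pair of BUB3 probe sets fell at 18 h (-0.34, adjusted p = 0.0186, and -0.28, adjusted p = 0.0222, over all probe sets), and a further one did not pass (-0.13, adjusted p = 0.426). A second MAD2L1 probe set, almost as bright as the one used, fell at 18 h (-0.26, adjusted p = 0.0142 over all probe sets).

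Of the 6 kinetochore and centromere genes, the NDC80 complex members SPC25, NDC80 and NUF2 fell at 18 h. This complex is the part of the kinetochore that grips microtubules. SPC25 was at 1526, 1561 and 1438 in enzastaurin cells at 4 h, against 1928, 1665 and 1687.5 in DMSO cells. At 10 h it was at 1508.5, 1497 and 1524 in enzastaurin cells, against 2343, 2446 and 2343 in DMSO cells. SPC25 at 18 h was at 1638, 1597 and 1354 in enzastaurin cells, against 2368, 2190.0 and 1946 in DMSO cells. The DMSO arrays lay above the enzastaurin arrays of their time at every time, by the most at 10 h. The log2 changes were -0.22 ± 0.08 (SE, adjusted p = 0.259) at 4 h, -0.65 ± 0.08 (SE, adjusted p = 3.56e-05) at 10 h and -0.50 ± 0.08 (SE, adjusted p = 0.000245) at 18 h.

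NDC80 was at 3479.9, 3267 and 2961 in enzastaurin cells at 18 h, against 4031, 3770.1 and 3992 in DMSO cells, and the log2 change was -0.28 ± 0.07 (SE, adjusted p = 0.0104). NUF2 was at 2820.1, 2575 and 2055 in enzastaurin cells and 2934, 3230.4 and 2825 in DMSO cells, and the log2 change was -0.28 ± 0.09 (SE, adjusted p = 0.0412). Neither pair of groups overlapped, and the enzastaurin array 3 was the lowest for both. Without that array the change passed for neither gene (adjusted p = 0.0678 for NDC80 and 0.252 for NUF2). CENPA, the histone H3 variant of centromeres, had 0.15 at 18 h, CENPF, a kinetochore protein, 0.07, and CENPE, a kinetochore motor, -0.08, none of which passed. A dimmer CENPF probe set fell at 10 h (-0.47, adjusted p = 0.027 over all probe sets) and had -0.36 at 18 h (adjusted p = 0.0662), beside -0.04 at 10 h in the one used.

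All 10 spindle and cytokinesis genes were below 0 at 18 h, and 5 of them fell. ASPM, a protein of spindle poles, was at 3573, 3386 and 3143 in enzastaurin cells, against 4408, 5005 and 4507.5 in DMSO cells. ANLN, or anillin, a scaffold of the contractile ring, was at 5371, 5863 and 5550.5 in enzastaurin cells, against 7354, 7071 and 7868 in DMSO cells. TPX2, the activator of AURKA on the spindle, was at 6158, 6838 and 6236 in enzastaurin cells, against 8198, 7466 and 8353 in DMSO cells. None of the 3 pairs of groups overlapped. The log2 changes were -0.46 ± 0.09 (SE, adjusted p = 0.000991) for ASPM, -0.41 ± 0.07 (SE, adjusted p = 0.000249) for ANLN and -0.32 ± 0.06 (SE, adjusted p = 0.000651) for TPX2.

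NUSAP1, which bundles spindle microtubules, was at 10942, 12109.8 and 11897 in enzastaurin cells at 4 h, against 13245, 12443 and 13112 in DMSO cells. At 10 h it was at 10368.5, 10724 and 11664 in enzastaurin cells, against 13018, 13944.5 and 13558 in DMSO cells. At 18 h it was at 9423, 9649 and 10155 in enzastaurin cells, against 13529.7, 13108 and 13291 in DMSO cells. Every enzastaurin array was below every DMSO array of its time. The log2 changes were -0.15 ± 0.06 (SE, adjusted p = 0.291) at 4 h, -0.31 ± 0.06 (SE, adjusted p = 0.00282) at 10 h and -0.45 ± 0.06 (SE, adjusted p = 2.36e-05) at 18 h, and a second NUSAP1 probe set gave -0.62 at 18 h. CKAP2, a microtubule-binding protein, fell to 4156 ± 168 in enzastaurin cells at 18 h, against 4802 ± 137 in DMSO cells (SD, n = 3 each). Its log2 change was -0.21 ± 0.07 (SE, adjusted p = 0.0356), and the mean of its probe sets, 1 of them under the floor, had the opposite sign (0.06, adjusted p = 0.9). The remaining 5 did not pass at 18 h, with -0.27 for ECT2 and -0.23 for RACGAP1, regulators of the small GTPase of the contractile ring, and between -0.12 and -0.10 for PRC1, which bundles the central spindle, and the spindle proteins HMMR and DLGAP5.

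TOP2A, the topoisomerase that untangles sister chromatids, fell at 10 and 18 h. It was at 7333, 8023 and 7557 in enzastaurin cells at 10 h, against 9705, 10567 and 9183 in DMSO cells. TOP2A at 18 h was at 7507.5, 6834 and 6865 in enzastaurin cells, against 8451, 9220.5 and 8864 in DMSO cells. The groups stood apart both times, with log2 changes of -0.12 at 4 h, -0.36 ± 0.08 (SE, adjusted p = 0.00428) at 10 h and -0.32 ± 0.08 (SE, adjusted p = 0.00512) at 18 h. With array medians subtracted neither fall of TOP2A passed (-0.35, adjusted p = 0.0944, at 10 h and -0.33, adjusted p = 0.0661, at 18 h). With the mean of all its probe sets the 10 h fall did not pass (-0.23, adjusted p = 0.112). FOXM1, a transcription factor of this gene program, rose at 18 h. It was at 3443, 2893 and 3508 in enzastaurin cells at 18 h, against 2529.7, 2712 and 2598 in DMSO cells. The lowest enzastaurin array was above the highest DMSO array, and the log2 change of FOXM1 was 0.32 ± 0.08 (SE, adjusted p = 0.0112), after 0.05 at 4 h and 0.19 at 10 h.

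Some of the 18 h calls depended on 1 array. BUB1 did not pass without any 1 of 5 of the 6 arrays (all but DMSO array 3), and CKAP2 without any 1 of 5 (all but enzastaurin array 2). CDC20 did not pass without any 1 of 4 (DMSO arrays 1 and 3, enzastaurin arrays 1 and 2), and NUF2 without DMSO array 1 or 2 or enzastaurin array 3. FOXM1 did not pass without enzastaurin array 1 or 3, CCNB2 without enzastaurin array 1 and NDC80 without enzastaurin array 3. At 4 h AURKA did not pass without DMSO array 3 or enzastaurin array 1, and PLK4 without DMSO array 2 or 3 or enzastaurin array 1 or 2, while at 10 h AURKA did not pass without DMSO array 1 or enzastaurin array 3. The other calls at these times passed without each single array. With array medians subtracted, KIF20A, AURKA and PLK4 no longer passed at 4 h, nor PLK1 and TOP2A at 10 h. At 18 h that setting lost BUB1, CCNB2, CKAP2, FOXM1, KIF11, NDC80, NUF2, PLK4, TOP2A and TTK. With the mean of all probe sets of a gene, AURKA and PLK4 no longer passed at 4 h, nor CDC25C and TOP2A at 10 h. At 18 h BUB1, CCNB2, CDC20, CDC25C, CKAP2, NUF2 and PLK4 no longer passed. These means take in probe sets under the level floor, among them some of BUB1, CCNB2, CDC25C and CKAP2. All those of AURKA, PLK4 and TOP2A were above it.

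Averaged over the 3 times, 18 members fell and 1 rose, where 9.07% of all genes were higher and 9.44% lower. The largest average falls were those of CDC25C (-0.57 ± 0.07 SE, adjusted p = 2.5e-06), SPC25 (-0.46 ± 0.05 SE, adjusted p = 9.06e-07), KIF20A (-0.39 ± 0.05 SE, adjusted p = 2.8e-06), NUSAP1 (-0.30 ± 0.04 SE, adjusted p = 3.1e-06) and ASPM (-0.29 ± 0.05 SE, adjusted p = 0.000449). FOXM1 rose by 0.19 ± 0.05 (SE, adjusted p = 0.00867). RACGAP1, BUB3, KIF14 and PTTG1, which passed at no single time with the probe set used, fell in the average, by 0.17, 0.16, 0.15 and 0.15 on the log2 scale (adjusted p = 0.0259, 0.00485, 0.0316 and 0.0263). The KIF14 call rested on 9 of the 18 arrays, each of which ended it when left out (adjusted p up to 0.0697), namely DMSO arrays 2 and 3 of each time and enzastaurin array 1 of 4 h, 3 of 10 h and 1 of 18 h. For PTTG1 there were likewise 9 such arrays (adjusted p up to 0.061), namely DMSO arrays 1 and 3 of 4 h, 2 and 3 of 10 h and 2 of 18 h, and enzastaurin arrays 1 of 4 h, 1 and 2 of 10 h and 1 of 18 h. For RACGAP1 there were 5 (adjusted p up to 0.0618), namely DMSO arrays 3 of 10 h and 1 and 2 of 18 h and enzastaurin array 1 of 4 and of 10 h. Among the other falls in the average, CCNA2 had 11 such arrays (adjusted p up to 0.0788), that is all but DMSO arrays 1 and 2 of 4 h, 2 of 10 h and 2 of 18 h and enzastaurin arrays 1 of 4 h, 1 of 10 h and 3 of 18 h. BUB1 had 7 (adjusted p up to 0.0723), namely DMSO arrays 3 of 4 h, 3 of 10 h and 1 of 18 h and enzastaurin arrays 3 of 4 h, 1 and 2 of 10 h and 1 of 18 h. The remaining calls in the average, BUB3 among them, passed without each single array. BUB3 did not pass with array medians subtracted (adjusted p = 0.0783) or with the mean of its probe sets (-0.07, adjusted p = 0.588). With array medians subtracted the average held 1 rise and 7 falls.

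Whether the change itself differed between times was tested as a difference of log2 changes. From 4 to 10 h the change became more positive in AURKA (0.69 ± 0.11 SE, adjusted p = 0.00278), PLK4 (0.48 ± 0.11 SE, adjusted p = 0.0392) and PLK1 (0.43 ± 0.09 SE, adjusted p = 0.0187), all kinases, and more negative in no member, where 0.808% of all genes moved up and 0.598% down. From 10 to 18 h it became more negative in PLK1 (-0.60 ± 0.09 SE, adjusted p = 0.000808), KIF20A (-0.52 ± 0.11 SE, adjusted p = 0.0145) and TPX2 (-0.46 ± 0.08 SE, adjusted p = 0.00395), where 1.33% of all genes moved up and 0.905% down. Between 4 and 18 h it became more positive in PLK4 (0.69 ± 0.11 SE, adjusted p = 0.000524) and AURKA (0.37 ± 0.11 SE, adjusted p = 0.0471). It became more negative in CDC25C (-0.65 ± 0.16 SE, adjusted p = 0.0147), MAD2L1 (-0.44 ± 0.13 SE, adjusted p = 0.0422) and NUSAP1 (-0.30 ± 0.09 SE, adjusted p = 0.0395). Of all genes 4.07% moved up and 3.71% down between 4 and 18 h. For the remaining members no difference between times was shown. The MAD2L1 difference rests on the probe set used, with 0.24 at 4 h and -0.20 at 18 h. The second one had -0.13 at 4 h and -0.26 at 18 h, so its 4 h change had the opposite sign, and a further one had 0.20 at 4 h and -0.11 at 18 h. The median standard error over all genes was 0.189 for such a difference and 0.134 for a single change.

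The differences of AURKA between 4 and 10 h, PLK1 between 10 and 18 h, TPX2, KIF20A, PLK4 between 4 and 18 h and CDC25C passed without each single array. Those of PLK4 between 4 and 10 h (not passing without any 1 of 11 of the 12 arrays), NUSAP1 (10 of 12), AURKA between 4 and 18 h and MAD2L1 (9 of 12 each) and PLK1 between 4 and 10 h (4 of 12) did not, with adjusted p up to 0.119, 0.0963, 0.122, 0.124 and 0.067.

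The members were also followed over time within each treatment. Between 18 and 10 h in enzastaurin cells, 20 members were lower at 18 h and none higher, where 5.42% of all genes were higher and 5.64% lower, and the members' median was -0.22. The largest of these falls were in KIF20A (-0.61 ± 0.08 SE, adjusted p = 2.98e-05), ASPM (-0.54 ± 0.09 SE, adjusted p = 0.000459), NEK2 (-0.53 ± 0.09 SE, adjusted p = 0.000299), NUF2 (-0.51 ± 0.09 SE, adjusted p = 0.000798) and PLK1 (-0.50 ± 0.06 SE, adjusted p = 2.42e-05). In DMSO cells over the same interval 2 members were lower, NUF2 (-0.32 ± 0.09 SE, adjusted p = 0.0441) and CKAP2 (-0.24 ± 0.07 SE, adjusted p = 0.0392), and none higher. Thus 4.17% of the members were lower, near the 3.30% of all genes, of which 2.02% were higher. The members' median was -0.05. NUF2 and CKAP2 in DMSO cells each failed to pass without any 1 of 5 of the 6 arrays, the exceptions being DMSO 18 h array 2 for NUF2 and DMSO 10 h array 1 for CKAP2 (adjusted p up to 0.161 and 0.184). In enzastaurin cells CCNB1, CENPE, HMMR, KIF2C, NDC80 and TTK each failed to pass without at least 1 array. Those arrays were 10 h arrays 2 and 3 for CCNB1 and CENPE, 10 h array 3 for HMMR and KIF2C and 10 h array 1 for TTK. They were also 18 h array 1 for CCNB1, HMMR and KIF2C, 18 h array 2 for CENPE and 18 h array 3 for NDC80. These contrasts share their arrays with the comparisons at 10 and 18 h, so they show the same data from another side. The difference between the 2 intervals is the tested change from 10 to 18 h given above, which 3 members passed.

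**Figure D5:**
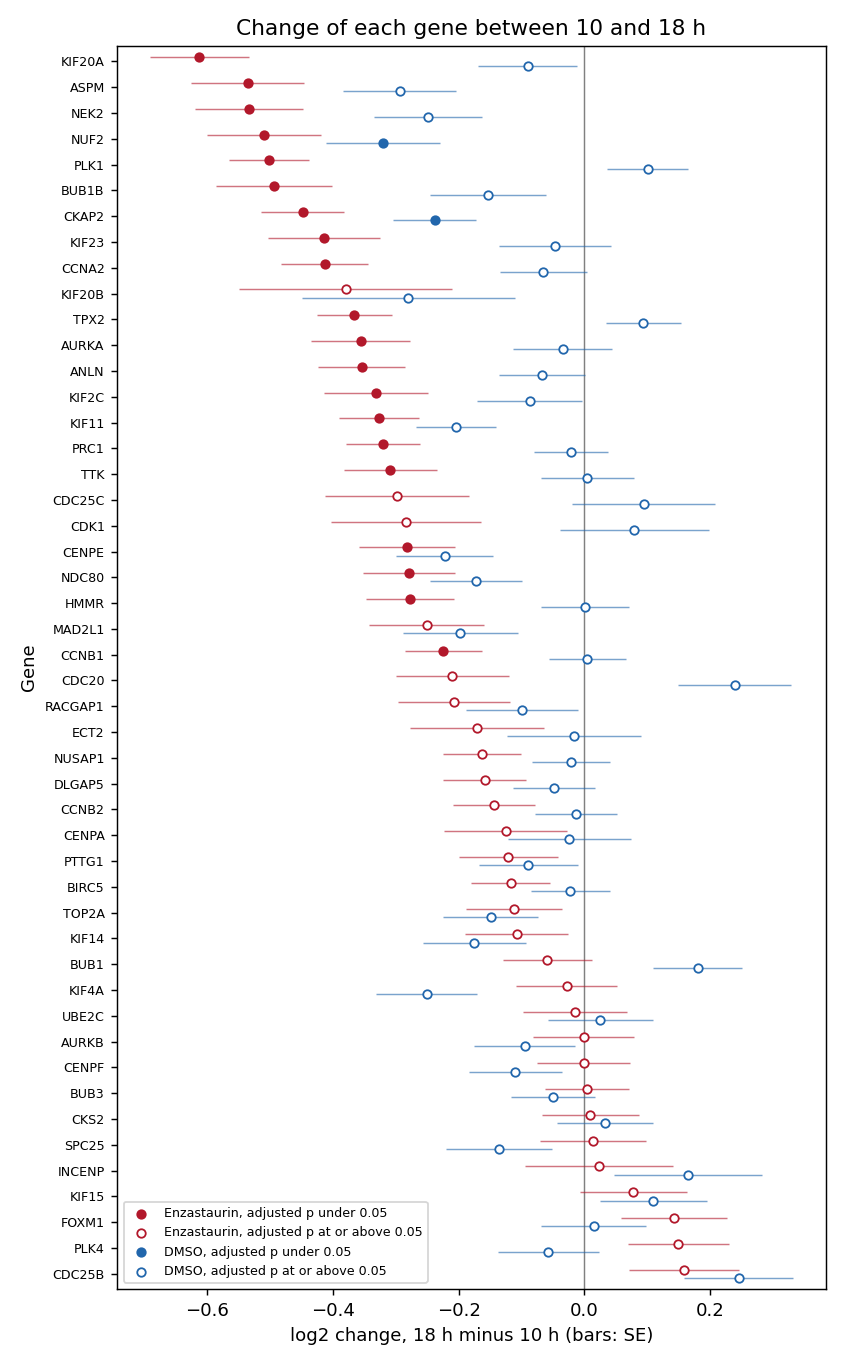
Log2 change from 10 to 18 h (18 h minus 10 h) of each of the 48 genes within enzastaurin cells (red) and within DMSO cells (blue), with standard errors as bars and filled points for adjusted p under 0.05, ordered by the change in enzastaurin cells. There are 20 filled red points, all left of 0, and 2 filled blue points, NUF2 and CKAP2.

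Between 10 and 4 h, 9 members were higher and 2 lower at 10 h in enzastaurin cells, where 10.2% of all genes were higher and 6.92% lower. The members' shares were 18.8% higher and 4.17% lower, so the share that fell was below that of all genes. The largest rises were in CENPA (0.38 ± 0.10 SE, adjusted p = 0.00958), KIF15 (0.38 ± 0.09 SE, adjusted p = 0.00356), NEK2 (0.34 ± 0.09 SE, adjusted p = 0.00844), KIF14 (0.32 ± 0.08 SE, adjusted p = 0.01) and KIF20A (0.27 ± 0.08 SE, adjusted p = 0.0224). The falls were in UBE2C (-0.39 ± 0.08 SE, adjusted p = 0.00262) and ANLN (-0.29 ± 0.07 SE, adjusted p = 0.0061). In DMSO cells over that interval 5 members were higher and 8 lower, where 11.5% of all genes were higher and 6.61% lower. These were 10.4% and 16.7% of the members, so the share that rose was near that of all genes. SPC25 (0.43), KIF15 (0.43), NEK2 (0.40), KIF14 (0.29) and NDC80 (0.21) were higher. The largest falls were in AURKA (-0.51), UBE2C (-0.44), CDC20 (-0.43), PLK1 (-0.37) and PLK4 (-0.37). AURKA, UBE2C, CDC20, PLK1 and PLK4 had their highest DMSO means at 4 h. Without 1 array, CENPA (enzastaurin 10 h array 1), NEK2 (enzastaurin 4 h array 2), KIF14 (enzastaurin 4 h array 1, DMSO 4 h array 1, DMSO 10 h arrays 2 and 3), KIF20A (enzastaurin 4 h array 1, 10 h arrays 1 and 2) and NDC80 in DMSO cells (all but DMSO 4 h array 2) did not pass.

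Between 18 and 4 h, 4 members were higher and 20 lower in enzastaurin cells, where 16.4% of all genes were higher and 13.6% lower. As shares of the members these were 8.33% and 41.7%, so the share that rose was below that of all genes. KIF15 (0.46 ± 0.09 SE, adjusted p = 0.000313), PLK4 (0.27 ± 0.08 SE, adjusted p = 0.0153), CKS2 (0.26 ± 0.08 SE, adjusted p = 0.0152) and BUB1 (0.20 ± 0.07 SE, adjusted p = 0.0444) were higher. The largest falls were in ANLN (-0.64 ± 0.07 SE, adjusted p = 4.86e-07), ASPM (-0.57 ± 0.09 SE, adjusted p = 5.48e-05), NUF2 (-0.46 ± 0.09 SE, adjusted p = 0.000673), PLK1 (-0.44 ± 0.06 SE, adjusted p = 2.11e-05) and PRC1 (-0.42 ± 0.06 SE, adjusted p = 1.33e-05). In DMSO cells 5 members were higher and 11 lower, where 11.3% of all genes were higher and 9.00% lower. The members' shares were 10.4% higher and 22.9% lower, the share that rose again near that of all genes. KIF15 (0.54), CDC25B (0.47), CDC25C (0.33), SPC25 (0.30) and BUB1 (0.23) were higher. The largest falls were in AURKA (-0.55), PLK4 (-0.42), UBE2C (-0.41), ANLN (-0.40) and KIF2C (-0.31). Without 1 array, BUB1 did not pass in enzastaurin cells (any of the 6) or in DMSO cells (4 h array 1 or 2, 18 h array 1). The same held for PLK4 (enzastaurin 4 h array 1, 18 h array 3), CKS2 (enzastaurin 4 h array 1, 18 h arrays 2 and 3) and SPC25 (DMSO 4 h arrays 2 and 3, 18 h array 1). CDC25C was lower at 18 than at 4 h in enzastaurin cells (-0.33 ± 0.11 SE, adjusted p = 0.0349) and higher in DMSO cells (0.33 ± 0.11 SE, adjusted p = 0.0494), and the difference between them is the tested value of -0.65 given above. Each of those changes of CDC25C failed to pass without any 1 of 4 of its 6 arrays (enzastaurin 4 h arrays 2 and 3 and 18 h arrays 2 and 3; DMSO 4 h arrays 1 and 3 and 18 h arrays 1 and 3).

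The 48 genes had 95 probe sets of their own, 87 of them above the level floor, and 25 genes had more than 1. At 4 h 63 of the 87 were below 0, 5 fell and none rose, with p adjusted over all 22781 probe sets of 1 gene above the floor, of which 0.356% were higher and 0.803% lower. At 10 h 52 were below 0, 7 fell and 3 rose, where 2.94% of all probe sets were higher and 3.30% lower. At 18 h 76 were below 0, 25 fell and 2 rose, where 6.20% of all probe sets were higher and 6.47% lower. Probe sets that passed where the one used for their gene did not were those of CCNA2 and CDK1 at 4 h, CCNB1 and CENPF at 10 h and BUB3 and MAD2L1 at 18 h, with the values given above. In AURKB, BIRC5, CENPF, KIF20B, KIF23 and PLK4 the probe sets above the floor differed in sign at 18 h, and no gene had probe sets that passed in both directions. The probe sets of a gene share its RNA sample on every array and are not replicates.

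Mitotic genes outside the 48 were listed apart. Of 80 other mitotic genes tested, none passed at 4 h, 6 fell and 3 rose at 10 h, and 15 fell and 1 rose at 18 h, with medians of -0.05, -0.04 and -0.12, and 60 of the 80 below 0 at 18 h. At 10 h these were 3.75% higher and 7.50% lower, beside 3.77% and 4.69% of all genes, so the share that rose was near the background. At 18 h they were 1.25% higher and 18.8% lower, beside 8.10% and 7.90% of all genes. Among the brightest 25% of genes 5.78% were higher and 6.40% lower at 10 h, and 11.4% and 11.0% at 18 h. Whether the 80 are that bright was not tested. The lowest adjusted p among the falls belonged to PMF1, a kinetochore protein (-0.69 ± 0.09 SE, adjusted p = 9.33e-06), and NCAPD2, a condensin subunit (-0.47 ± 0.07, adjusted p = 0.000108). Next were PSRC1, a spindle protein (-0.43 ± 0.07, adjusted p = 0.000174), and SKA2, of the kinetochore (-0.45 ± 0.08, adjusted p = 0.000355). CDCA5, or sororin, which protects sister chromatid cohesion, was the gene that rose (0.62 ± 0.10, adjusted p = 0.000134).

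Among 29 regulators of the G2 and M gene program, 2 fell at 4 h, 1 rose and 3 fell at 10 h, and 4 rose and 3 fell at 18 h, with a median of -0.03 at 18 h. These shares at 18 h were 13.8% higher and 10.3% lower, from 4 and 3 genes, beside 8.10% and 7.90% of all genes. They were near those of the brightest 25% of genes (11.4% and 11.0%), but whether the 29 are that bright was not tested. At 10 h they were 3.45% higher and 10.3% lower, and at 4 h 6.90% lower, beside 4.69% and 1.25% of all genes lower at those times, from 3 and 2 genes. Those that rose at 18 h were GADD45A, a stress gene that restrains CDK1 (0.44, adjusted p = 3.73e-05), and the E2F repressors E2F7 (0.44, adjusted p = 0.000213) and E2F8 (0.49, adjusted p = 0.0387). SFN, or 14-3-3 sigma, which holds CDK1 and cyclin B in the cytoplasm, also rose (0.46, adjusted p = 0.000336), after a fall at 10 h (-0.28, adjusted p = 0.0341). GADD45A also rose at 10 h (0.37, adjusted p = 0.000551). Those that fell were TFDP2, a partner of E2F proteins (-0.59, adjusted p = 0.00104), GADD45B (-0.40, adjusted p = 0.00313) and RB1, the retinoblastoma protein (-0.34, adjusted p = 0.0457). MYBL2, or B-MYB, which joins the MuvB complex in G2, had changes of 0.16, -0.27 and -0.15 at 4, 10 and 18 h, none of which passed. WEE1, the kinase that opposes CDC25 phosphatases, had -0.27, -0.11 and -0.13 and did not pass either. The 2 regulators that fell at 4 h were NFYB, of NF-Y (-0.425, adjusted p = 0.0457), and MYBL1 (-0.314, adjusted p = 0.0457). Neither passed at 10 or 18 h, and NFYA and NFYC passed at no time.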

How the data were processed

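RNA of 18 U251 samples, 3 per treatment and time, was hybridized to 1-colour Affymetrix HG-U133 Plus 2.0 arrays. The deposited values were intensity per probe set on a linear scale, made by the authors with GCOS 1.2 per the submitters' processing notes; the trimmed means show arrays scaled to a common value. No further normalization was applied. Levels were taken as log2(intensity + 16). Of 54613 probe sets, 41091 carried 1 gene symbol, 1801 several and 11721 none; each of 19775 genes was read from its brightest probe set with 1 symbol, and 12376 genes with a mean above the median probe set (an intensity of 102) were tested.

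Group means of the 6 groups over all 18 arrays were fitted with limma 3.58.1 (lmFit, eBayes with trend) in R 4.3.3, and p-values were two-sided and adjusted by Benjamini-Hochberg over all tested genes within each comparison, with a threshold of 0.05. The fit was tested on simulated data. Promoters and figures used Python 3.11.15, pandas 2.3.3 and matplotlib 3.10.9. The number of arrays limits the precision: the median standard error of a change was 0.134. Array values are given for the called genes of each role group with the largest changes, up to 4 a group, and for CDK1, CCNB1, PLK1, AURKA, AURKB, BUB1, TOP2A and FOXM1; CCNA2 and its second probe set were added after values were seen. For other contrasts up to 5 called members in each direction are named, and of each other list up to 4 at 18 h. MYBL1, MYBL2, NFYA, NFYB, NFYC, WEE1, CDKN1A and CDKN1B were added after values were seen. Members and lists were chosen with earlier results of these data known. Alternatives varied the offset, filter, normalization, probe set choice, weights, variance trend, block and arrays.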

Additional observations from a re-analysis of the deposited data

Results flagged for a closer look

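In 11 instances the effect of enzastaurin on a member differed between 2 times by limma's test of the difference itself (adjusted p under 0.05 over all genes). Between 10 and 4 h the log2 change was more positive at 10 h by 0.69 ± 0.11 in AURKA (SE, adjusted p = 0.00278), by 0.43 ± 0.09 in PLK1 (adjusted p = 0.0187) and by 0.48 ± 0.11 in PLK4 (adjusted p = 0.0392). All 3 are kinases whose DMSO level was highest at 4 h.

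Between 18 and 10 h the difference was -0.60 ± 0.09 in PLK1 (adjusted p = 0.000808), -0.46 ± 0.08 in TPX2 (adjusted p = 0.00395) and -0.52 ± 0.11 in KIF20A (adjusted p = 0.0145). PLK1 and TPX2 had all 3 enzastaurin arrays above all DMSO arrays at 10 h and below them at 18 h. KIF20A was lower in enzastaurin cells at both times. At 10 h the changes of TPX2 (0.14, adjusted p = 0.174) and KIF20A (-0.11, adjusted p = 0.475) did not pass.

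Between 18 and 4 h the difference was 0.69 ± 0.11 in PLK4 (adjusted p = 0.000524), 0.37 ± 0.11 in AURKA (adjusted p = 0.0471), -0.65 ± 0.16 in CDC25C (adjusted p = 0.0147), -0.44 ± 0.13 in MAD2L1 (adjusted p = 0.0422) and -0.30 ± 0.09 in NUSAP1 (adjusted p = 0.0395). MAD2L1, a checkpoint protein, passed at no single time with the probe set used, with changes of 0.24 at 4 h and -0.20 at 18 h. A second MAD2L1 probe set fell at 18 h (-0.26, adjusted p = 0.0142 over all probe sets) and had -0.13 at 4 h, the opposite sign of the one used.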

How the results depend on the processing

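Counts of members called under other settings, beside the reported 3 at 4 h, 6 at 10 h, 21 at 18 h and 19 in the average, were within 1.5 times of these except as follows. At 4 h there were 0 with array medians subtracted, 1 with the mean of all probe sets and 5 with every probe set on its own; at 10 h there were 10 with quantile normalization and 10 with array weights. With array medians subtracted there were 11 at 18 h, 8 in the average, 7 in DMSO cells between 18 and 4 h (16 reported) and 1 higher and 23 lower in enzastaurin cells between 18 and 4 h (4 and 20 reported). The 5 members whose effect differed between 18 and 4 h became 2 with no level filter or no variance trend, and 3 with array medians subtracted, the mean of all probe sets, only the groups compared or every probe set on its own. With each array left out in turn, the counts ran from 1 to 4 at 4 h, 5 to 6 at 10 h, 16 to 21 at 18 h, 14 to 20 in the average and 2 to 5 for the difference between 18 and 4 h. Of the 30 calls at the 3 times, 15 were lost with array medians subtracted, 11 with the mean of all probe sets, 5 with only the groups compared, 4 each with no filter and no trend, 2 with array weights, 1 with every probe set on its own, and none with offsets of 1 or 64, quantile normalization or the brightest 25%. Leaving out the enzastaurin arrays 3 of 10 and 18 h together, chosen after seeing the data for their deviation, lost 6 of 27. CKAP2 changed sign with the mean of all probe sets, to 0.057 at 18 h against DMSO and 0.149 in enzastaurin cells between 18 and 10 h. The members' median at 18 h was -0.17 without the enzastaurin array 3. Over all genes, 224, 1046 and 1981 were called at 4, 10 and 18 h, against 79, 443 and 1187 with array medians subtracted, 127 and 630 at 4 and 10 h with the mean of all probe sets and 139 at 4 h with only the groups compared. The causes were not tested.

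Replicate numbers are shared across groups, but deviations of same-numbered enzastaurin and DMSO arrays correlated at only -0.0814 to 0.0544, so the numbers were not taken as pairs. With the replicate block the counts were 3, 7, 22 and 20 at 4, 10 and 18 h and in the average, 6 for the difference between 18 and 4 h, 15 in DMSO cells and 24 in enzastaurin cells between 18 and 4 h, and none of the 30 calls was lost.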

Other observations

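Genes of the G1/S transition and of DNA replication, which act before the mitotic genes in the cell cycle, were listed apart. Of 40 tested, 1 rose and 1 fell at 4 h, 3 rose and 3 fell at 10 h, and 8 rose and 3 fell at 18 h, where the median log2 change was 0.06. At 18 h 20.0% were higher and 7.50% lower, beside 8.10% and 7.90% of all genes, so the share that fell was near the background. At 10 h 7.50% were higher and 7.50% lower, beside 3.77% and 4.69% of all genes. Among the brightest 25% of genes 11.4% were higher and 11.0% lower at 18 h, and 5.78% and 6.40% at 10 h. Whether the 40 are that bright was not tested. Those with the lowest adjusted p that rose at 18 h were CCNE2, or cyclin E2 (0.52 ± 0.07, SE, adjusted p = 2.73e-05), FEN1, a flap endonuclease of lagging strand synthesis (0.51 ± 0.07, adjusted p = 3.09e-05), RFC5, a clamp loader subunit (0.31 ± 0.06, adjusted p = 0.00101), and CDC7, a kinase that fires replication origins (0.40 ± 0.10, adjusted p = 0.00737). TK1, or thymidine kinase (-0.35 ± 0.07, adjusted p = 0.00205), UNG, a uracil glycosylase (-0.38 ± 0.11, adjusted p = 0.0173), and MCM2, a helicase subunit (-0.32 ± 0.10, adjusted p = 0.0406), fell. CCNE2 fell at 4 h (-0.34, adjusted p = 0.0159) and FEN1 rose at 4 h (0.31, adjusted p = 0.0296).

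CDKN1A, the CDK inhibitor p21, fell at 10 h (-0.68, adjusted p = 0.00168) and had a change of 0.004 at 18 h (adjusted p = 0.992). CDKN1B, the CDK inhibitor p27, fell at 10 h (-0.36, adjusted p = 0.0017) and did not pass at 18 h (-0.19, adjusted p = 0.0611).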
